A study of Sus scrofa with 16 samples.

Results

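The genes described here encode the signalling chains of the T cell receptor complex (CD3D, CD3E, CD3G and CD247), the coreceptors (CD4, CD8A and CD8B) and surface proteins that mark T cells (CD2, CD5 and IL7R). They were measured in left ventricle from pigs after a myocardial infarction (MI) and after a sham operation (Sham). A probe set, a group of short probes that together report 1 transcript on an Affymetrix porcine array, was taken as a member if the platform annotation gave it exactly 1 gene symbol and that symbol was one of these 10. The rule found 13 of the 23999 probe sets that are not controls, for 9 of the 10 genes. CD247 had 4 probe sets, CD4 had 2, and CD3D, CD3E, CD3G, CD8A, CD8B, CD2 and IL7R had 1 each, while CD5 had none and has no value here. Each of 16 Yorkshire x Landrace pigs aged 2 to 3 months gave 1 array, 8 from the MI group and 8 from the Sham group, 3 weeks after the operation. Sex was balanced by the labels, with 4 females and 4 neutered males in each group. The labels do not state how the infarct was made, which part of the ventricle was sampled or how far it lay from the infarct.

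A T cell recognises a peptide held by an MHC molecule through its antigen receptor, a pair of variable chains that cannot signal by themselves. The CD3 chains and the zeta chain encoded by CD247 assemble with that pair and carry the tyrosine motifs that the kinase LCK phosphorylates. CD4 binds MHC class II and marks helper T cells, whereas CD8, a dimer of alpha chains or of an alpha and a beta chain, binds MHC class I and marks cytotoxic T cells. CD2 is an adhesion receptor for CD58, CD5 dampens signalling through the receptor, and IL7R is the chain of the interleukin 7 receptor that keeps resting T cells alive. Several of these genes are not exclusive to T cells: natural killer cells carry CD2 and CD247, and in pigs they carry CD8A as well. In mice, helper T cells are known to take part in the healing of an infarct.

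All levels are log2 signals as deposited, so a difference of 1 is a doubling of signal, and levels of different probe sets were not ranked against each other. On these arrays, 23 controls whose target RNA is not in the sample reached at most 4.99, which is called background here. Of the 13 probe sets, 8 had a mean above background in at least 1 group, and of all probe sets 16731 of 23999 did. Cardiomyocyte markers were bright, with a summed level of 16.99 to 17.10 in MI and of 17.01 to 17.11 in Sham animals. A summed level is the log2 of the summed linear signals of the genes in a list, so the brightest gene weighs most. The poly-A spike-in controls split the arrays in 2, a division the labels are silent on. Set A comprised 6 MI and 5 Sham arrays, and set B comprised animals 7 and 8 of the MI group and animals 6, 7 and 8 of the Sham group. The 3′ minus 5′ signal of actin, a measure of RNA integrity and labelling, was 2.64 ± 0.29 in set A (SD, n = 11) and 1.42 ± 0.14 in set B (SD, n = 5), and it was 2.39 ± 0.59 in MI and 2.12 ± 0.68 in Sham animals (SD, n = 8 each). MI 7, labelled female, had an EIF1AY signal of 9.51, EIF1AY being a chromosome Y gene, against 3.00 to 3.51 in the other 7 animals labelled female and 9.40 to 9.96 in the 8 labelled male. The results within females are also given without MI 7. Differences within set B are given as values with no call, since it holds 2 MI and 3 Sham arrays. There 1 of all 23999 probe sets passed (fitted without sex). By the labels the 2 MI arrays of set B are female, against 1 female and 2 male Sham arrays. Group and labelled sex are thus partly mixed in the set B differences.

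Probe sets of 5 of the 9 measured genes passed the test between MI and Sham animals, and the shifts were small. CD3D, CD247 (1 of its 4 probe sets), CD8B and IL7R were higher in MI, by 1.23 to 1.35-fold, and CD4 (1 of its 2 probe sets) was lower by 0.24 on the log2 scale. CD3E, CD3G, CD8A and CD2 did not pass. The group means of IL7R and CD4 lay below background, the highest control signal, in both groups. The test was limma's moderated test on all 23999 probe sets, with Benjamini-Hochberg adjustment over all of them and a pass at an adjusted p under 0.05. Of all probe sets 10.5% passed, against 5 of the 13 (38.5%), with 5.39% of all higher and 5.14% lower in MI. At an unadjusted p under 0.05, 6 of the 13 and 23.6% of all probe sets passed. Of the 8 above background 3 passed, all higher in MI, and in a fit of the 16731 probe sets above background alone 5.94% passed. The 3 that passed had both group means above background. A CD247 probe set that did not pass was among the 8 only by its MI mean (5.10, against 4.81 in Sham). Without MI 7, 4 of the 13 passed, against 2403 of all 23999: CD3D, CD8B and 2 probe sets of CD247. In none of the 13 were the groups separated without overlap (2.96% of all probe sets were). The median difference of the 13 was 0.08, and that of all probe sets was close to 0. In bulk tissue, fewer cells of a type and less RNA per cell cannot be told apart, and the same holds for more.

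**Figure D1:**
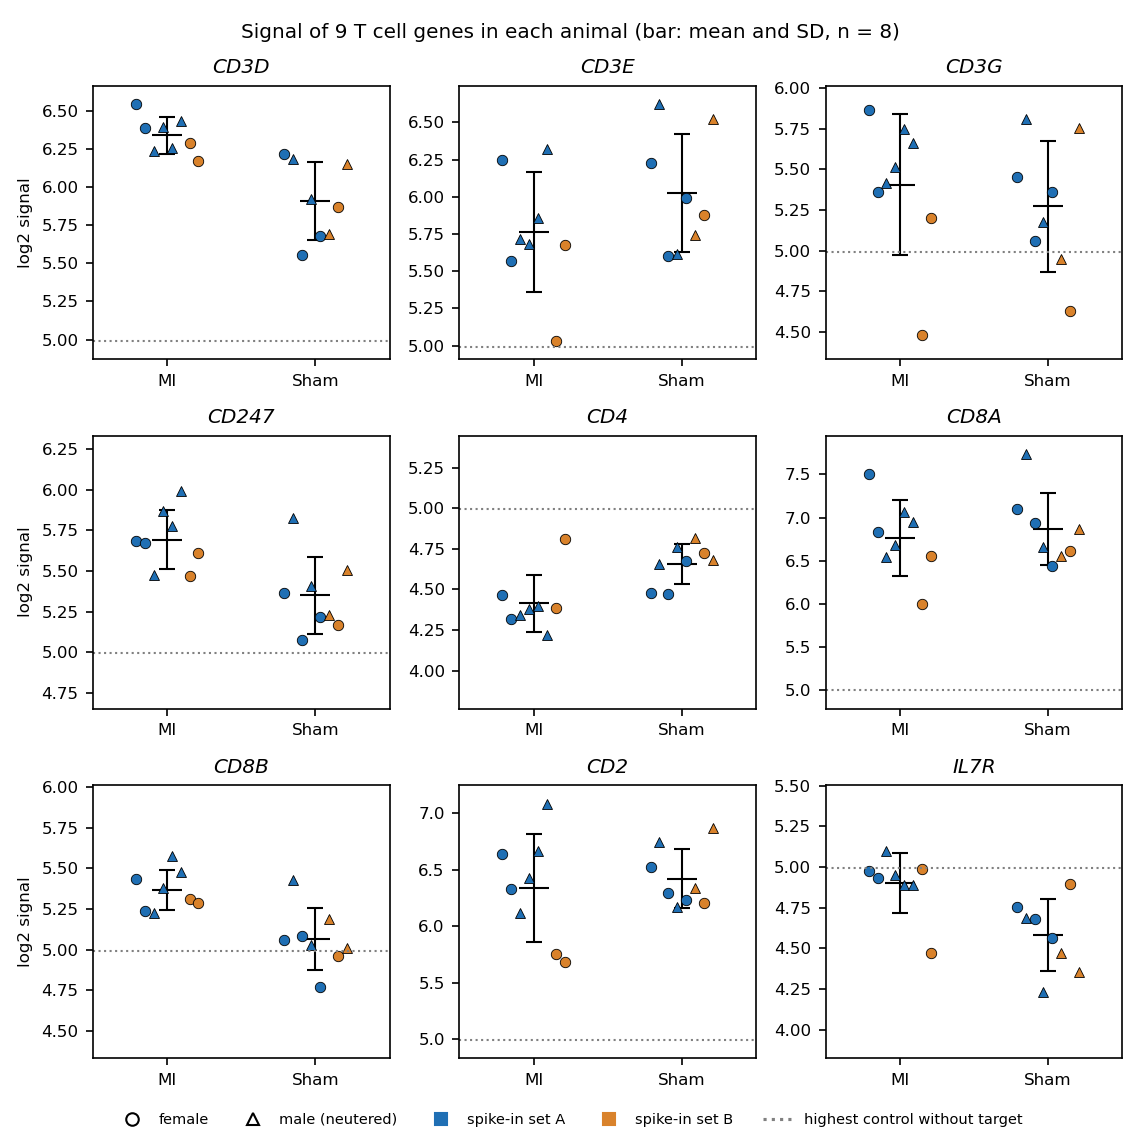
Log2 signal (y axis) of the brightest probe set of each of the 9 measured genes in the 8 MI and the 8 Sham animals (x axis), with points for animals, bars for the mean and SD and a dotted line at background (4.99). CD3D and CD8B sit higher in MI with little overlap, CD3E and CD8A spread alike in both groups, and CD4 and all but 1 of the IL7R points lie below the dotted line.

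Of the 4 signalling chains of the receptor, CD3D and CD247 passed and CD3E and CD3G did not, and whether the chains differ from each other was not tested. CD3D, the delta chain, had a lowest, median and highest level of 6.17, 6.34 and 6.54 in MI animals, against 5.56, 5.90 and 6.21 in Sham animals. The groups overlapped narrowly: 7 MI animals lay above every Sham animal, and only MI 8 lay within the Sham range. The means were 6.34 ± 0.12 in MI and 5.91 ± 0.25 in Sham animals (SD, n = 8 each), a difference of 0.43 (SE 0.10, 95% confidence interval 0.22 to 0.64, 1.35-fold, adjusted p = 0.0116). CD3D passed when any 1 animal was left out. Fitting the 2 sets as a block gave a difference of 0.42 (adjusted p = 0.0125), set A alone gave 0.46 (adjusted p = 0.0398), and set B alone gave 0.33.

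CD3E, the epsilon chain, which pairs with the delta chain and with the gamma chain, ranged over 5.03, 5.70 and 6.32 (lowest, median, highest) in MI animals and over 5.60, 5.94 and 6.62 in Sham animals. The ranges overlapped over most of their length, and MI 7 alone lay well below the rest. The means were 5.76 ± 0.40 in MI and 6.03 ± 0.40 in Sham animals (SD, n = 8 each), a difference of -0.26 (SE 0.19, 95% confidence interval -0.66 to 0.13, adjusted p = 0.443). The difference was -0.16 without MI 7, -0.13 within set A and -0.70 within set B. CD3G, the gamma chain, ranged over 4.48, 5.47 and 5.87 in MI animals and over 4.63, 5.27 and 5.81 in Sham animals. Its difference was 0.13 (SE 0.19, 95% confidence interval -0.26 to 0.53, adjusted p = 0.737), with MI 7 again the lowest animal. It was 0.26 without MI 7, 0.03 without MI 1, 0.21 within set A and -0.27 within set B. The interval of CD3E excludes a rise of the size fitted for CD3D, and that of CD3G does not. The 3 CD3 genes are neighbours in the genome. In the RefSeq annotation of Sscrofa11.1, CD3E (Entrez 397455) lies at chromosome 9 from 45619730 to 45633972, CD3D (396661) from 45640475 to 45644153 and CD3G (494013) from 45645243 to 45656779, with 6502 bases between CD3E and CD3D and 1089 between CD3D and CD3G. These are gene positions, since the place of the probes within the genes was not determined.

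CD247 (Entrez 397302, chromosome 4 from 83494266 to 83586887) encodes the zeta chain, which carries the most tyrosine motifs of the complex. Its brightest probe set ranged over 5.47, 5.68 and 5.99 in MI animals and over 5.08, 5.30 and 5.83 in Sham animals. All MI animals lay above the Sham mean, 6 Sham animals lay below every MI animal, and Sham 2 had a level among the highest of the MI animals. The means were 5.69 ± 0.18 in MI and 5.35 ± 0.24 in Sham animals (SD, n = 8 each), a difference of 0.34 (SE 0.09, 95% confidence interval 0.15 to 0.54, 1.27-fold, adjusted p = 0.0248). The call was lost on leaving out MI 4, MI 6 or Sham 3, with an adjusted p of at most 0.0513. It did not pass among the 16000 brightest probe sets either (adjusted p = 0.0552). Within set A the difference was 0.31 and did not pass (adjusted p = 0.119), with the set as a block it was 0.32 (adjusted p = 0.0238), and within set B it was 0.24.

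The other probe sets of CD247 were dimmer and disagreed in part. The next brightest was above background in 5 MI arrays and in 0 Sham arrays, with means of 5.10 ± 0.23 in MI and 4.81 ± 0.09 in Sham animals (SD, n = 8 each), and the difference was 0.29 (SE 0.09, adjusted p = 0.0544). It passed within set A, where the difference was 0.38 (adjusted p = 0.0272), with the set as a block (adjusted p = 0.0420), and without MI 7 (adjusted p = 0.0250). The other two had both group means under background, and their differences of 0.08 (adjusted p = 0.754) and 0.05 (adjusted p = 0.751) did not pass.

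**Figure D2:**
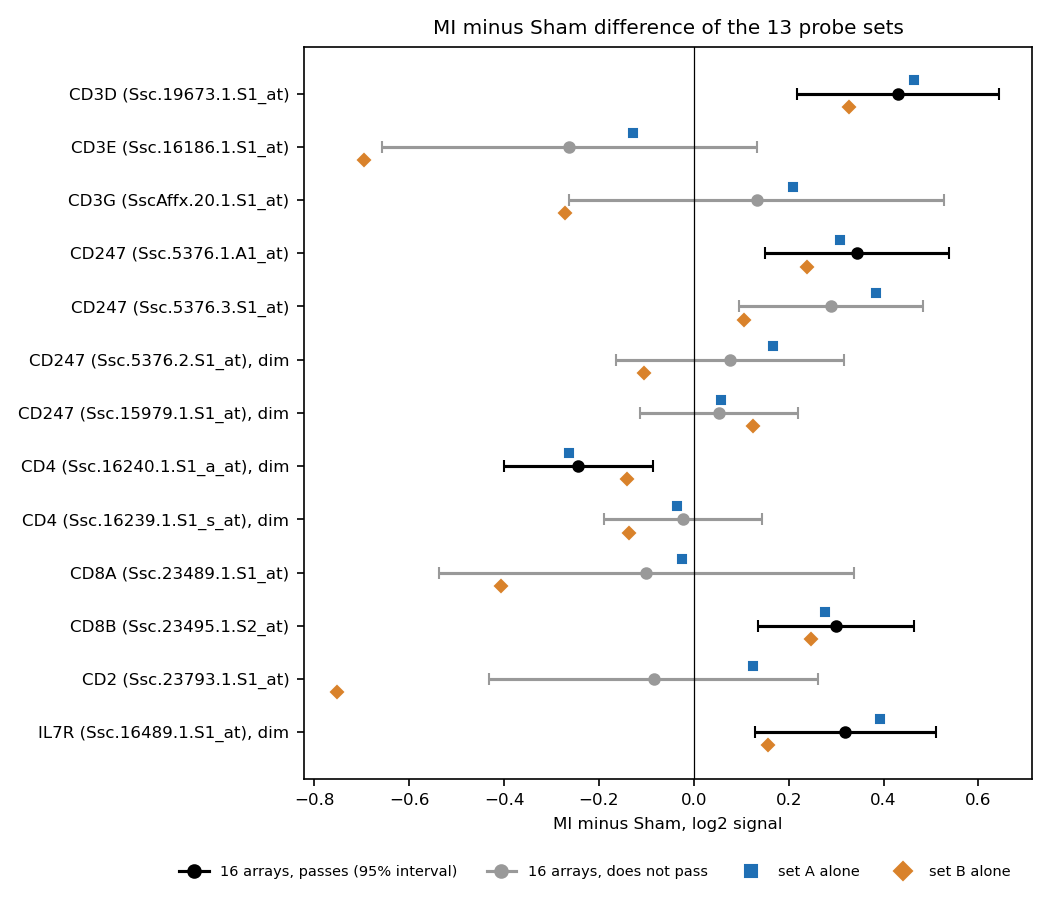
MI minus Sham difference of log2 signal (x axis) with its 95% confidence interval for each of the 13 probe sets (y axis), from all 16 arrays and with squares and diamonds for the difference within set A alone and set B alone. The intervals of CD3D (0.22 to 0.64) and CD8B (0.14 to 0.46) lie above 0, and that of CD8A (-0.54 to 0.34) spans 0.

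Among the coreceptors, the beta chain of CD8 passed and the alpha chain did not, and the difference between the chains was not tested. CD8B (Entrez 396636, chromosome 3 from 57968358 to 57986450) ranged over 5.22, 5.35 and 5.58 in MI animals and over 4.77, 5.04 and 5.43 in Sham animals. All 8 MI animals lay above the Sham mean and 7 Sham animals lay below every MI animal, the exception being Sham 2 at 5.43. The signal was above background in 8 MI arrays and in 6 Sham arrays. The means were 5.37 ± 0.12 in MI and 5.07 ± 0.19 in Sham animals (SD, n = 8 each), a difference of 0.30 (SE 0.08, 95% confidence interval 0.14 to 0.46, 1.23-fold, adjusted p = 0.0206). It passed when any 1 animal was left out, but not among the 16000 brightest probe sets (adjusted p = 0.0515). The difference was 0.28 within set A, where it did not pass (adjusted p = 0.131), 0.29 with the set as a block (adjusted p = 0.0221) and 0.25 within set B.

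CD8A (Entrez 396627, chromosome 3 from 57999228 to 58029768), whose gene lies 12777 bases from that of CD8B, had levels of 5.99, 6.76 and 7.51 in MI animals and of 6.44, 6.77 and 7.74 in Sham animals. MI 1 and Sham 2 were the highest of their groups and MI 7 was the lowest of all animals. The means of 6.76 ± 0.44 in MI and 6.86 ± 0.42 in Sham animals (SD, n = 8 each) differed by -0.10 (SE 0.21, 95% confidence interval -0.54 to 0.34, adjusted p = 0.831). The sign of that difference turned without MI 7 (0.02) or Sham 2 (0.03).

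CD4 (Entrez 404704, chromosome 5 from 63892129 to 63918547) was measured near the limit of the array. Its brighter probe set was above background in no array, with levels of 4.22, 4.38 and 4.81 in MI animals and of 4.47, 4.68 and 4.82 in Sham animals. The groups were apart in 7 MI animals, which lay below every Sham animal, and MI 8 lay at 4.81, close to the highest Sham animal. The means were 4.41 ± 0.17 in MI and 4.66 ± 0.12 in Sham animals (SD, n = 8 each), a difference of -0.24 (SE 0.07, 95% confidence interval -0.40 to -0.09, adjusted p = 0.0462). Leaving out MI 8 gave -0.30 (adjusted p = 0.00688). It also passed on leaving out Sham 1 or Sham 3, but leaving out any of the remaining 13 animals ended the call, with an adjusted p of at most 0.0940. Within set A it was -0.26 (adjusted p = 0.0463), within set B -0.14 and with the set as a block -0.23 (adjusted p = 0.0428). The dimmer probe set had a difference of -0.02 (adjusted p = 0.904).

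CD2 and IL7R, which lie outside the receptor complex, differed in their pattern. CD2 (Entrez 396662, chromosome 4 from 103963802 to 103976971) had levels of 5.69, 6.38 and 7.09 in MI animals and of 6.17, 6.32 and 6.87 in Sham animals. Its spread was wider in MI, with MI 8 at 5.69, MI 7 at 5.75 and MI 3 at 6.12 below every Sham animal and MI 6 at 7.09 above them. The means of 6.34 ± 0.48 in MI and 6.42 ± 0.26 in Sham animals (SD, n = 8 each) differed by -0.08 (SE 0.16, 95% confidence interval -0.43 to 0.26, adjusted p = 0.817), and the difference was 0.13 within set A and -0.75 within set B. IL7R (Entrez 100271930, chromosome 16 from 21300141 to 21330156) had levels of 4.47, 4.94 and 5.10 in MI animals and of 4.23, 4.62 and 4.90 in Sham animals, and only 1 MI array was above background. Here 5 MI animals lay above every Sham animal, and MI 8 was the lowest of the MI animals. The means were 4.90 ± 0.19 in MI and 4.58 ± 0.22 in Sham animals (SD, n = 8 each), a difference of 0.32 (SE 0.09, 95% confidence interval 0.13 to 0.51, 1.25-fold, adjusted p = 0.0324). Leaving out 1 of 9 animals (MI 1, 2, 3, 4, 7, Sham 3, 4, 5, 8) ended the call, with an adjusted p of at most 0.0689, and leaving out MI 8 gave 0.38 (adjusted p = 0.00552). It was 0.39 within set A (adjusted p = 0.0271), 0.16 within set B and 0.31 with the set as a block (adjusted p = 0.0348). IL7, the ligand, differed by -0.04 (adjusted p = 0.798).

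Chains that assemble with each other were also compared within each array. Each pair sets a chain that passed against one that did not. The distance between the group means therefore follows from the differences given above and is no separate result. The zero of such a difference has no meaning, because probe sets differ in brightness, so only its shift between groups was read, as a description with no test. CD3D minus CD3E had a lowest, median and highest value of 0.11, 0.51 and 1.26 in MI animals, against -0.44, -0.05 and 0.31 in Sham animals. Here 6 MI animals lay above every Sham animal and 7 Sham animals lay below every MI animal, the overlap being made by Sham 4, MI 1 and MI 6, and the means of 0.58 ± 0.35 in MI and -0.12 ± 0.24 in Sham animals (SD, n = 8 each) lay 0.69 apart. CD8B minus CD8A was -2.07, -1.39 and -0.68 in MI and -2.31, -1.76 and -1.37 in Sham animals, with 4 MI animals above every Sham animal and means 0.40 apart. CD3D minus CD3G was 0.51, 0.85 and 1.81 in MI and 0.32, 0.62 and 1.24 in Sham animals, with broad overlap and means 0.30 apart. Without MI 7, which was the highest MI animal in all 3 pairs, the means lay 0.60 apart for CD3D minus CD3E, 0.30 for CD8B minus CD8A and 0.17 for CD3D minus CD3G.

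**Figure D3:**
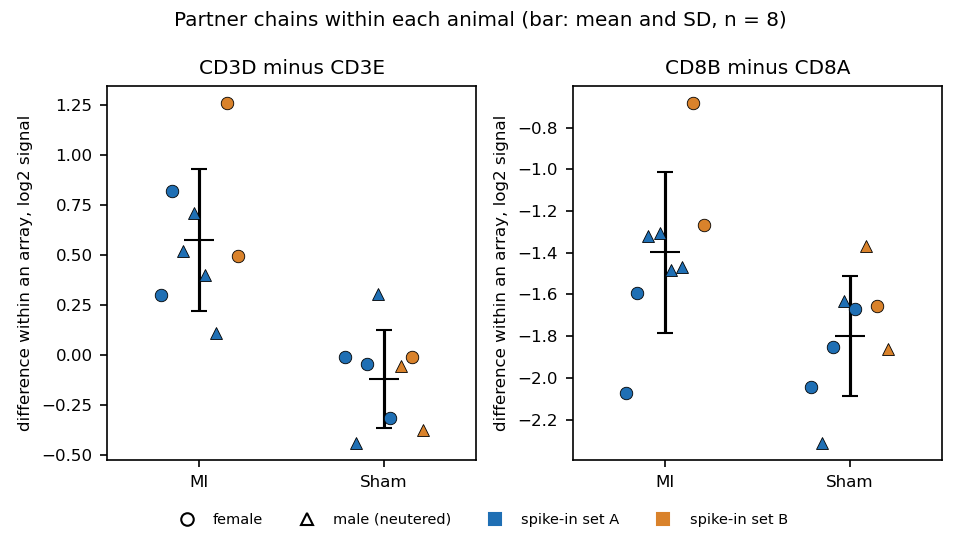
Difference of log2 signal between partner chains within each array (y axis) in the 8 MI and the 8 Sham animals (x axis), with points for animals and bars for the mean and SD. CD3D minus CD3E averages 0.58 in MI and -0.12 in Sham animals, and CD8B minus CD8A, the other pair drawn, overlaps more.

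Beside the difference between the groups, the levels of 14 of the 36 pairs of genes were correlated from animal to animal. The mean of each cell of group and sex was taken out first, and the 36 pairs of the 9 genes were tested by permuting animals within those cells (100000 resamples, two-sided), with adjustment over the 36 pairs. Of the 14 pairs that passed, 13 also passed by Spearman's rank correlation. No share of all gene pairs passing this test is given here, so how unusual 14 of 36 is cannot be read from it. Among CD3D, CD3E, CD3G, CD247, CD2 and CD8A, 13 of 15 pairs passed, with r from 0.55 to 0.84 over all 15 (a grouping made after the values were seen), and from 0.50 to 0.89 with the spike-in set also taken out. Among all pairs of the 5925 genes above background, 8.65% had an r at least as high as the lowest of these 15, and the median r was 0.004. CD3E and CD3G had r = 0.839 and rho = 0.859 over 16 animals (permutation p = 0.00473 and 0.00291, adjusted p = 0.0167 and 0.0257). Their r was 0.735 without the 2 animals farthest from the median and 0.892 with the spike-in set also taken out. CD3E and CD2 had r = 0.800 and rho = 0.724 (permutation p = 0.00335 and 0.0170, adjusted p = 0.0153 and 0.0485), and r = 0.724 without the 2 farthest animals.

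CD3D and CD3E, and the 2 chains of CD8, were correlated as well. CD3D and CD3E had r = 0.688 and rho = 0.621 (permutation p = 0.00721 and 0.0294, adjusted p = 0.0200 and 0.0757), so that rho did not pass, with r = 0.673 without the 2 farthest animals. On the deposited values, with the groups left in, r was 0.163. CD8A and CD8B had r = 0.695 and rho = 0.674 (permutation p = 0.00336 and 0.00985, adjusted p = 0.0153 and 0.0322), r = 0.518 without the 2 farthest animals and r = 0.386 on the deposited values. CD3D and CD247, which were both higher in MI, had r = 0.714 and rho = 0.776 (permutation p = 0.00117 and 0.00185, adjusted p = 0.0153 and 0.0257), r = 0.643 without the 2 farthest animals. CD8B passed with CD8A and in none of its 7 other pairs, in which r ran from -0.22 (CD4) to 0.49 (CD247), with 0.44 for CD2, 0.34 for CD3E and 0.25 for CD3G. CD4 and IL7R, the dim members, were in none of the pairs that passed: the 8 pairs of CD4, by its brighter probe set, had r from -0.533 to -0.133. The dimmer CD4 probe set, which was not tested, had r from -0.03 (CD3D) to 0.63 (CD8B) with the brightest probe sets of the other genes. The 2 CD4 probe sets had r = -0.06 with each other.

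**Figure D4:**
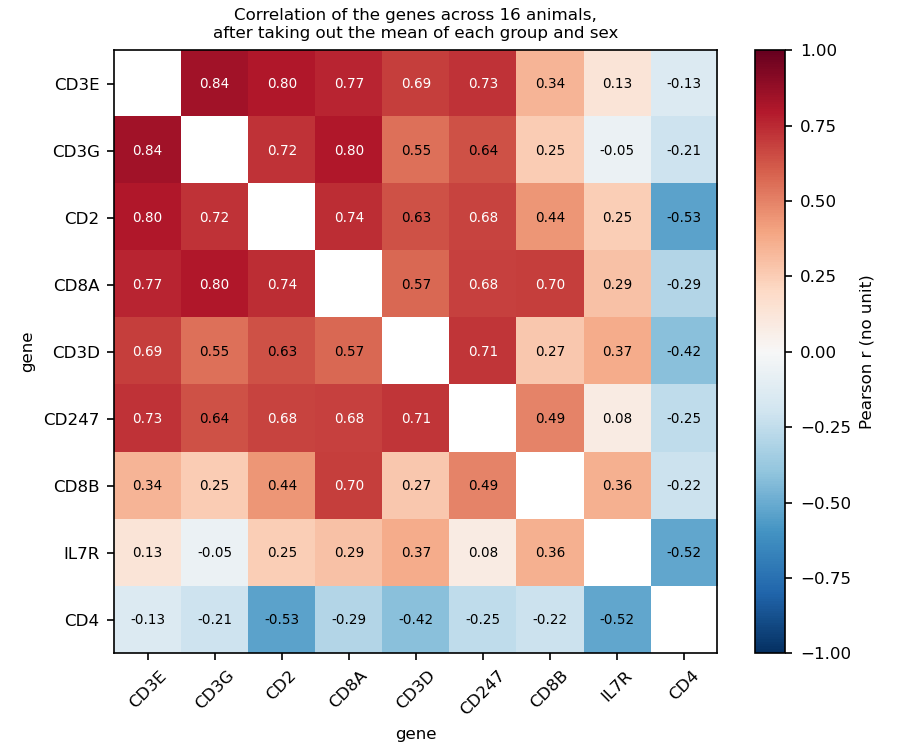
Pearson r (colour, no unit) between the genes (both axes) across 16 animals after taking out the mean of each cell of group and sex. The block of CD3D, CD3E, CD3G, CD247, CD2 and CD8A is positive throughout (0.55 to 0.84). The row of CD4, drawn for its brighter probe set only, is negative.

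Over the 6764 other genes, the genes with the pattern most like that of each receptor chain were then listed by the same within-cell r, as a description across 16 animals with no test. For CD3E they were LCK (r = 0.962), the kinase that phosphorylates these chains, KLRK1 (0.946), an activating receptor of natural killer and cytotoxic T cells, LOC100621559 (0.912), LOC102166602 (0.844) and CCL5 (0.839), a chemokine of activated T cells. For CD3G they were LOC102166602 (0.948), ABHD13 (0.891), KLRK1 (0.876), DNM1L (0.873), a mitochondrial fission GTPase, and ELMO1 (0.869), a regulator of cell migration. For CD247 they were GIMAP5 (0.852), a lymphocyte GTPase, LPAR6 (0.785), HDAC1 (0.780), LOC100511937 (0.779) and CKB (0.778), and for CD3D ANXA5 (0.810), EGF (0.795, dim), SLC7A7 (0.793), ISOC1 (0.773) and CCR9 (0.770). CCR9 is a lymphocyte homing receptor, and KLRK1 and LOC102166602 stood in the lists of both CD3E and CD3G.

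On the deposited values, with the groups left in, the closest genes of CD3E were KLRK1 (r = 0.898), LOC100621559 (0.839), LOC102166602 (0.825), CCL5 (0.804) and CD2 (0.797). Those of CD3G were ABHD13 (0.896), LOC100621559 (0.855), SPP2 (0.847, dim), LCK (0.822) and INTS13 (0.821). Those of CD3D were LOC100517803 (0.858), TENM4 (0.857, dim), CD247 (0.836), FDXR (0.817) and SCG3 (0.817, dim), and those of CD247 were ADSS (0.851, dim), AQP8 (0.845, dim), CD3D (0.836), CD58 (0.835), the ligand of CD2, and TLR8 (0.831, dim). CD3D and CD247 were each in the list of the other, and LOC100621559 was in those of CD3E and CD3G.

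Sex was examined in the same fit. The MI minus Sham difference had 0 of 13 probe sets passing in females (2.85% of all passed, and at an unadjusted p under 0.05, 4 of the 13 against 16.2% of all) and 1 of 13 in males (3.40% of all, and at an unadjusted p under 0.05, 6 of the 13 against 19.0% of all). The probe set that passed in males was that of IL7R, with 4.96 ± 0.10 in MI and 4.44 ± 0.20 in Sham males (SD, n = 4 each), a difference of 0.52 (limma adjusted p = 0.0346). In females it was 4.84 ± 0.25 in MI and 4.73 ± 0.14 in Sham animals (SD, n = 4 each), a difference of 0.12 (limma adjusted p = 0.734), and 0.07 without MI 7 (limma adjusted p = 0.906). Without MI 7, 0 of 13 probe sets passed in females (1.65% of all). There 4 of the 13 had an unadjusted p under 0.05, and no share of all at that p is given here. The interaction of group and sex was tested directly, and 0 of 13 probe sets passed (0% of all; at an unadjusted p under 0.05, 1 of the 13 against 5.68% of all). That probe set was IL7R, with -0.41 for the difference in females minus that in males (adjusted p = 0.794), and -0.46 without MI 7 (adjusted p = 0.979).

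CD3D was higher in MI in both sexes, by 0.52 in females, with 6.35 ± 0.16 in MI and 5.83 ± 0.29 in Sham animals, and by 0.34 in males, with 6.33 ± 0.10 in MI and 5.99 ± 0.23 in Sham animals (SD, n = 4 each), although neither passed (limma adjusted p = 0.0620 and 0.202). Without MI 7 the difference in females was 0.54 (limma adjusted p = 0.106). CD4 differed by -0.39 in males, with 4.33 ± 0.08 in MI and 4.73 ± 0.07 in Sham animals (SD, n = 4 each, limma adjusted p = 0.0507), and by -0.09 in females (limma adjusted p = 0.741), where it was -0.06 without MI 7 (limma adjusted p = 0.904). Its interaction was 0.30 (adjusted p = 0.794), and 0.34 without MI 7 (adjusted p = 0.979). Between females and males over both groups, 0 of 13 passed (0.0583% of all). At an unadjusted p under 0.05, 1 of the 13 and 3.11% of all probe sets passed, the member being the brightest probe set of CD247 at -0.23 for female minus male (adjusted p = 0.998).

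The wider pathway was counted by gene, with 1 probe set per gene, and 7.63% of all 6765 genes passed, 279 (4.12%) higher and 237 (3.50%) lower in MI, at a median difference close to 0. Of 16 measured genes of T cell receptor signalling (31 were listed), 1 was higher and 2 lower. LAT, the scaffold on which the receptor's signal is assembled, was 5.84 ± 0.17 in MI and 5.52 ± 0.17 in Sham animals (SD, n = 8 each), which is 0.32 higher (SE 0.09, adjusted p = 0.0323), and leaving out MI 4, MI 6, Sham 1, Sham 3, Sham 5, Sham 6 or Sham 8 ended that call, at an adjusted p of at most 0.0656. NFATC1, a transcription factor activated through calcineurin, was 4.70 ± 0.19 in MI and 5.15 ± 0.13 in Sham animals, a difference of -0.45 (adjusted p = 0.00356), with the MI mean below background. RASGRP1, which activates RAS downstream of the receptor, was below background, with a difference of -0.32 (adjusted p = 0.00417). The median of the list was -0.04. The kinase LCK differed by 0.20 (adjusted p = 0.570), and of the probe sets of VAV1, an exchange factor, the brightest differed by -0.09 (adjusted p = 0.777), another was higher by 0.38 (adjusted p = 0.0185), and the remaining one differed by -0.18 (adjusted p = 0.174).

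Of 20 genes listed as co-stimulatory and inhibitory receptors 4 were measured and 3 passed, of which only CD27 is such a receptor. CD27, a TNF receptor family member of T and B cells, was 4.72 ± 0.14 in MI and 5.24 ± 0.09 in Sham animals (SD, n = 8 each), giving -0.52 (SE 0.07, adjusted p = 0.000206). Its ranges did not overlap, 4.41 to 4.87 in MI, all below background, and 5.11 to 5.40 in Sham animals, and within set A its adjusted p was 0.00494. CD40LG, the ligand by which helper T cells engage CD40, was below background, with a difference of -0.28 (adjusted p = 0.0171). CD5L, which despite its name is a protein secreted by macrophages, was also below background and differed by 0.51 (adjusted p = 0.000598). The list thus held 1 gene higher and 2 lower in MI, with a median of -0.03.

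In the other lists at most 1 gene passed. Of 18 measured cytokines and cytokine signalling genes, IL12RB2, a chain of the interleukin 12 receptor, was lower, at 5.41 ± 0.17 in MI and 5.75 ± 0.16 in Sham animals (SD, n = 8 each), a difference of -0.34 (adjusted p = 0.0193), and another probe set of STAT4, which signals downstream of that receptor, was lower (-0.30, adjusted p = 0.00707, below background), while its main probe set differed by -0.11 (adjusted p = 0.651). Of 22 measured MHC genes and ligands of the members, CD80 was lower (-0.38, adjusted p = 0.00511, below background), while CD58 differed by 0.23 (adjusted p = 0.0878), and other probe sets of SLA-DRB1 (-0.45, adjusted p = 0.00538, below background) and TAP1 (-0.23, adjusted p = 0.0176) were lower. The main probe sets of both genes differed by 0.26 for SLA-DRB1 (adjusted p = 0.399) and 0.05 for TAP1 (adjusted p = 0.924). Of 16 homing genes, ITGB7, an integrin chain, was lower (-0.35, adjusted p = 0.0216, below background), while the chemokine receptor CCR7 differed by 0.14 (adjusted p = 0.235). None of 8 cytotoxic effectors passed (limma, 1 at an unadjusted p under 0.05), with TNF at -0.35 (adjusted p = 0.0925) and GNLY at 0.38 (adjusted p = 0.364). None of 5 T cell transcription factors passed (limma, 1 at an unadjusted p under 0.05), with FOXP3 at -0.17 (adjusted p = 0.0627) and SATB1 at -0.13 (adjusted p = 0.438). The main probe set of GATA3 differed by 0.0011 (adjusted p = 0.9986). Another 2 of its probe sets passed in opposite directions, at -0.47 (adjusted p = 0.0441) and, below background, at 0.31 (adjusted p = 0.0440). JAK1 differed by 0.18 (adjusted p = 0.105).

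**Figure D5:**
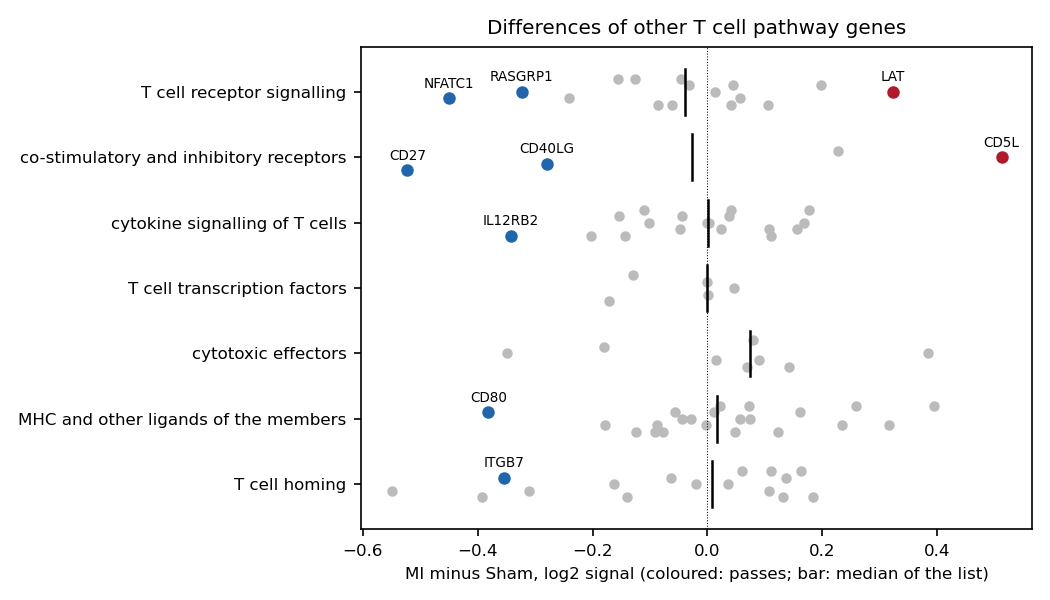
MI minus Sham difference of log2 signal (x axis) of each measured gene of the 7 pathway lists (y axis), with points for genes, colour for those that passed and a bar for the median of the list. CD27 (-0.52) and CD5L (0.51) lie farthest out among the genes that passed, and the medians lie between -0.04 and 0.07.

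Of the 9 pathway genes named as passing on their main probe set, all 9 passed when the set was fitted as a block, and all but LAT passed when any 1 animal was left out. LAT also did not pass with the animal number as a block (adjusted p = 0.0655). Nor did it pass among the 16000 brightest probe sets (0.0689) or those above background (0.0551). Within set A, IL12RB2 (adjusted p = 0.0729), ITGB7 (0.0588) and CD40LG (0.0711) did not pass, and the other 6 did.

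Markers of other cell types were measured on the same arrays. Of 3 measured natural killer cell markers 0 passed, with KLRK1 at -0.28 (adjusted p = 0.646) and NCAM1 at -0.17 (adjusted p = 0.572). Another probe set of NCAM1 was lower (-0.39, adjusted p = 0.0121), and a further one differed by -0.60 (adjusted p = 0.0617). The summed level of the markers was 9.35, 10.03 and 10.41 (lowest, median, highest) in MI and 9.30, 9.93 and 10.21 in Sham animals. It was set mainly by the brightest marker, FCGR3A, at 9.77 ± 0.44 in MI and 9.68 ± 0.32 in Sham animals (SD, n = 8 each). FCGR3A differed by 0.08 (adjusted p = 0.835). Of 7 macrophage and monocyte markers 1 was higher, CD14 by 0.76 (adjusted p = 0.00314), and AIF1 differed by 0.22 (adjusted p = 0.369), with a summed level of 11.88, 12.16 and 12.65 in MI and of 11.77, 11.99 and 12.67 in Sham animals. Of 4 erythroid markers HBM (1.10, adjusted p = 0.00843) and AHSP (0.83, adjusted p = 0.0376) were higher, while HBB differed by -0.06 (adjusted p = 0.817) and ALAS2 by 0.59 (adjusted p = 0.220), with a summed level of 8.91, 9.43 and 9.98 in MI and of 8.75, 8.93 and 9.38 in Sham animals. The other probe set of CD14 differed by 0.28 (adjusted p = 0.0560). The remaining macrophage and monocyte markers did not pass, among them CD163 at 0.13 (adjusted p = 0.660) and ITGAM at -0.10 (adjusted p = 0.641, below background).

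Of 5 neutrophil markers MMP9 was higher by 0.54 (adjusted p = 0.000569) while S100A8, at -0.21, did not pass, and of 2 mast cell markers MS4A2 was higher by 0.69 (adjusted p = 0.0425), its other probe set differed by -0.06 (adjusted p = 0.918), and KIT differed by 0.55 (adjusted p = 0.328). The summed level of the neutrophil markers was 6.69 to 7.14 in MI and 6.60 to 8.04 in Sham animals, and that of the mast cell markers was 8.59 to 9.75 in MI and 7.77 to 9.48 in Sham animals. CD79B, the only B cell marker measured, was below background and differed by -0.25 (adjusted p = 0.0742). None of 8 cardiomyocyte, 5 endothelial and 3 fibroblast markers passed (limma, with 1 endothelial marker at an unadjusted p under 0.05), although other probe sets of KDR (0.31, adjusted p = 0.0169) and COL1A2 (0.32, adjusted p = 0.0407), both below background, were higher. The part that these cell types had in the differences of the T cell genes was not tested.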

How the data were processed

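Left ventricle RNA was measured on 1 Affymetrix porcine array per animal. Per the labels, frozen tissue was crushed, extracted with Trizol, cleaned on columns and labelled with biotin. The deposited table holds log2 signals, as judged from its range of 2.87 to 14.9, and all arrays share a median of 6.24; how the authors summarised and normalized them is not given in the sources used here. Values were used as deposited, without the 124 control probe sets.

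Differences were fitted in R 4.3.3 with limma 3.58.1 (12 residual degrees of freedom), with separate means for MI females, MI males, Sham females and Sham males. Tests were two-sided, with Benjamini-Hochberg adjustment over 23999 probe sets. The fit was tested on simulated data. A gene's main probe set is the one with the highest mean. Symbols came from the platform annotation, and positions from RefSeq (Sscrofa11.1). The number of animals limits the precision.

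The members and lists were chosen with earlier results of these data known. Named were all member probe sets, the genes of each list that passed plus those with the lowest p, and the 5 closest genes of each receptor chain. IL7 was named after its value was seen. Alternatives were other normalizations, filters, thresholds, weights and blocks, the spike-in sets, and leaving out each animal. Those for the pathway genes that passed were added after seeing the data.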

Additional observations from a re-analysis of the deposited data

Results flagged for a closer look

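MI 8 lay far from the other 7 MI animals in 2 probe sets, both dim. For CD4 (its brighter probe set) MI 8 had a level of 4.81 and the others 4.22 to 4.47. For IL7R MI 8 had 4.47 and the others 4.89 to 5.10. In each the gap to the nearest animal, divided by the range of the group, exceeded Dixon's 95% critical value for 8 samples. Of 26 groups looked at, 2 exceeded it, and chance alone marks about 1 in 20. MI 8 belongs to spike-in set B, and its part in these values was not tested.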

How the results depend on the processing

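The 5 of 13 probe sets passing between MI and Sham animals (10.5% of all) became 3 with the animal number as a replicate block (9.98% of all), 1 of 7 among the 16000 brightest (4.09%), 3 of 8 among those above background (5.94%), 0 at an adjusted p under 0.01 (4.68%; limma, 6 at an unadjusted p under 0.05) and 0 within spike-in set B (0.00417%; limma, 2 unadjusted, fitted without sex). Without 1 animal the count was 2 to 6 (2045 to 2537 of all), with 2 without MI 4 and 3 without MI 1, MI 2, MI 6, Sham 3, Sham 4, Sham 5 or Sham 8. The other 9 of 14 alternatives kept the count within 1.5 times, though not always the same members. The fit without sex lost CD4 (adjusted p = 0.0528) and gained the next brightest CD247 probe set (adjusted p = 0.0362). With 32 added to every linear signal, CD4 was lost as well (adjusted p = 0.0592). The replicate block lost CD8B (adjusted p = 0.0670) and CD4 (0.0935). The labels do not say whether animals of the same number were paired. Apart from number 6, animals of the same number were in the same spike-in set. Their deviations correlated at -0.216 to 0.504, over 0.1 in 5 of 8, and 3 of 8 MI animals matched their own number best. In females the 0 became 1 when the spike-in set was a block (3.71% of all), and lay between 0 and 1 without 1 animal (376 to 710 of all). In males the 1 (IL7R) became 2 under quantile normalization (3.44% of all), an intensity trend (3.88%) and array weights (6%). It became 0 with the replicate block, an adjusted p under 0.01, the set as a block, set A, and without MI 7 with that block. The count was also 0 among the 16000 brightest and those above background, but IL7R was too dim to be tested there. Those counts therefore do not bear on its call. Across these settings, 2 to 6 had an unadjusted p under 0.05 (limma). The count in males was 0 to 2 without 1 animal. The interaction (0 of all) and female minus male (at most 0.0837% of all) stayed at 0 under every alternative run. Signs turned, in no difference that passed, for CD2 in set A (0.13), a dim probe set of CD247 (-0.11) and CD3G (-0.27) in set B, and, on leaving out MI 7 or Sham 2, the dimmer CD4 probe set (0.0084 and 0.016, from -0.081 to 0.016 without 1 animal) and CD8A (0.021 and 0.030, from -0.23 to 0.030). The causes were not tested. Signal near background limits CD4, IL7R and 3 of the 4 CD247 probe sets. It also limits CD8B and CD3G, each above background in 6 of 8 Sham arrays.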
